A study of Mus musculus with 20 samples.

Results

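The Gadd45 family and 5 target genes of the tumour suppressor p53 were followed through 20 RNA libraries of NIH3T3 cells, a fibroblast line derived from mouse embryos. The genes were taken by name: Gadd45a, Gadd45b, Gadd45g, Cdkn1a, Mdm2, Btg2, Ccng1 and Trp53inp1. All 8 were among the 11075 genes of the count table, and 7 of them were among the 9726 genes tested, Trp53inp1 being too low. The set was chosen by the opposite direction of Gadd45b in cells at 1% CO2 and in NaOH-treated cells, so the values of Gadd45b are a description, with no test.

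The question was which transcripts follow the CO2 level and which follow the alkaline medium that a fall in CO2 brings with it. NIH3T3 cells in a medium with 18 mM bicarbonate were moved to 1% CO2 for 2 or 4 h, or kept at 5% CO2 with 18 mM NaOH in the medium for 2 or 4 h, and were compared with cells at 5% CO2 without NaOH at 0 h. Each of the 5 groups had 4 libraries. Both treatments were set against the same 0 h libraries, and untreated cells of the later times were not analysed here, so that time in culture and treatment cannot be told apart in a comparison against 0 h. A group is a single line in culture, its 4 libraries are called biological replicates by the study without a statement on separate cultures or days, and p-values therefore measure the spread between these libraries.

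Bulk MARS-seq marks the 3′ end of each polyadenylated transcript by a unique molecular identifier (UMI), and copies of one molecule are then counted once. The libraries held 1325293 to 5640523 UMIs (median 3343835.5), and levels are given as normalized counts, the UMI count scaled to a common library size with TMM factors. Fibroblast markers were present in every library (8 of 9 listed genes in the table, summed level 99160 to 134711). Of 5 epithelial markers 2 were in the table, and Krt14, a keratin, averaged 836 at 0 h, 557 and 236 after 2 and 4 h of 1% CO2, and 891 and 690 after 2 and 4 h of NaOH. Of the muscle markers 1 of 4 was in the table (9.30 to 28.0), and none of the immune, endothelial or adipocyte markers was. A link between Krt14 and the members' values was not tested.

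GADD45 proteins are small acidic nuclear proteins without known enzyme activity that act by binding others, among them the kinase MAP3K4 at the head of the p38 and JNK pathways, the replication clamp PCNA, and the CDK1 and cyclin B1 complex. Their mRNAs are short-lived and are induced by stress, Gadd45a through p53 among other factors, Gadd45b through NF-κB and TGFβ signalling, and Gadd45g by cytokines. The transcription factor p53 induces genes that stop the cell cycle, such as Cdkn1a, and also its own inhibitor, Mdm2.

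The 3 family members lie on different chromosomes of the GRCm38 mouse genome, the assembly behind mm10. Gadd45a is on the minus strand at chr6:67035096-67037457, Gadd45b on the plus strand at chr10:80930073-80932204 and Gadd45g on the plus strand at chr13:51846678-51848468. The 250 bases before each start site are shown because Gadd45b and Gadd45g moved together and Gadd45a did not. They are RefSeq sequences of GRCm38.p6, written 5′ to 3′ in the sense of the gene, and capitals mark every match to a searched motif.
Gadd45a, chr6:67037408-67037657 (minus strand): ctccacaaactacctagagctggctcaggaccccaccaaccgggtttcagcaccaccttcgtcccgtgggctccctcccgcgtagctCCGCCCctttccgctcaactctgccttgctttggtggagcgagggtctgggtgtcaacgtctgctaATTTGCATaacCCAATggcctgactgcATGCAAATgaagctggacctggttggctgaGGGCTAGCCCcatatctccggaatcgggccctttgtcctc
Gadd45b, chr10:80929841-80930090 (plus strand): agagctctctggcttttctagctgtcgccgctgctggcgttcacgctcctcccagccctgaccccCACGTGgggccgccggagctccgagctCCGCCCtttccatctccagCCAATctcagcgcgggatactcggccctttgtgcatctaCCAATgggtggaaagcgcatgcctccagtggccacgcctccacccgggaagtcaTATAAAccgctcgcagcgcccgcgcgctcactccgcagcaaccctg
Gadd45g, chr13:51846425-51846674 (plus strand): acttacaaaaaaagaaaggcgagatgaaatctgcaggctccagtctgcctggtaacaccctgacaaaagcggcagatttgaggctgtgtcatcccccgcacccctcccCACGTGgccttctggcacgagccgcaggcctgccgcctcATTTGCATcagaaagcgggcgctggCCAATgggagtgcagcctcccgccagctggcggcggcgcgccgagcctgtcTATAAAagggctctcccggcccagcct
The motifs, searched on both strands, were the TATA box TATAAA, the CCAAT box CCAAT, the E-box CACGTG, the octamer ATTTGCAT, the cyclic AMP response element TGACGTCA, the AP-1 site TGANTCA, the GC box GGGCGG, and the p53 half-site and the CArG box of serum response factor by their consensus. The octamer was added after the sequences had been seen. Gadd45b and Gadd45g, but not Gadd45a, held a TATA box (46 to 41 and 27 to 22 bases before the start) and an E-box (185 to 180 and 142 to 137 bases before it). These motifs occur in the same window of 12.4% and 6.02% of all 32851 promoters. Gadd45a and Gadd45g held the octamer, which 1.60% of promoters hold, and in Gadd45a it stands in both directions around a CCAAT box. A CCAAT box was found in all 3 (33.8% of promoters), and a match to the p53 half-site in Gadd45a only of the 3 (7.13% of promoters). None of the 3 windows held the AP-1 letters (6.75% of promoters), the CArG box (1.47%) or the cyclic AMP response element (1.55%). A match is a description of the letters and not a measured binding site.

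Gadd45b had the lowest counts of the family at 0 h and the highest of the 3 after 2 h of NaOH. Its normalized counts were 134, 133, 99.2 and 130 in the 0 h libraries, 52.6, 51.8, 52.9 and 49.4 after 2 h of 1% CO2, and 83.1, 79.1, 58.2 and 67.9 after 4 h of 1% CO2. NaOH-treated cells had 1734, 1525, 2172 and 1779 after 2 h and 583, 466, 481 and 459 after 4 h. Every library at 1% CO2 was thus below every 0 h library, and every NaOH library was above all of them. Against 0 h, the log2 fold change (log2FC) was -1.27 (SE 0.14) and -0.78 (SE 0.13) after 2 and 4 h of 1% CO2, and 3.85 (SE 0.11) and 1.99 (SE 0.11) after 2 and 4 h of NaOH. Cells at 1% CO2 held 34.8-fold less Gadd45b mRNA than NaOH-treated cells at 2 h and 6.83-fold less at 4 h. Between 2 and 4 h the level came back towards that of 0 h in both treatments, with a log2FC of 0.49 (SE 0.15) at 1% CO2 and -1.86 (SE 0.10) in NaOH. In bulk RNA, a change in the number of cells that express a gene and a change in RNA per cell cannot be told apart.

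Gadd45g followed Gadd45b in direction, with smaller changes. Its normalized counts were 371, 332, 353 and 370 at 0 h, 192, 226, 215 and 217 after 2 h of 1% CO2, and 201, 203, 209 and 210 after 4 h of 1% CO2. NaOH-treated cells had 1254, 1203, 1459 and 1351 after 2 h and 859, 806, 791 and 788 after 4 h. No library of one treatment overlapped with 0 h or with the other treatment. A gene is said to rise or fall below where its Benjamini-Hochberg adjusted p in edgeR's quasi-likelihood test, over all genes tested, was at most 0.05, and it is said to be called where the change was also at least 2-fold. Gadd45g fell at 1% CO2, with a log2FC of -0.75 (SE 0.08, edgeR adjusted p = 4.8e-09) at 2 h and -0.79 (SE 0.08, edgeR adjusted p = 1.4e-09) at 4 h. It rose in NaOH-treated cells, with a log2FC of 1.89 (SE 0.08, edgeR adjusted p = 4.2e-21) at 2 h and 1.19 (SE 0.08, edgeR adjusted p = 2.7e-15) at 4 h. The direct comparison of 1% CO2 with NaOH gave -2.63 (SE 0.08, edgeR adjusted p = 2.7e-24) at 2 h and -1.98 (SE 0.08, edgeR adjusted p = 4.8e-20) at 4 h.

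Gadd45a, the family member known as a p53 target, fell in both treatments and fell further in NaOH. Its normalized counts were 650, 690, 636 and 622 at 0 h, 382, 439, 461 and 457 after 2 h of 1% CO2, and 476, 463, 514 and 441 after 4 h of 1% CO2. NaOH-treated cells had 284, 286, 317 and 287 after 2 h and 211, 228, 202 and 205 after 4 h. The 5 groups followed in the order 0 h, 1% CO2, NaOH 2 h and NaOH 4 h without overlap, apart from the 2 time points of 1% CO2, which overlapped. The log2FC against 0 h was -0.58 (SE 0.08, edgeR adjusted p = 4.6e-07) and -0.46 (SE 0.08, edgeR adjusted p = 2.0e-05) after 2 and 4 h of 1% CO2. It was -1.15 (SE 0.08, edgeR adjusted p = 5.8e-14) and -1.62 (SE 0.08, edgeR adjusted p = 3.8e-18) after 2 and 4 h of NaOH. Cells at 1% CO2 held more Gadd45a than NaOH-treated cells, with a log2FC of 0.57 (SE 0.09, edgeR adjusted p = 2.4e-06) at 2 h and 1.17 (SE 0.09, edgeR adjusted p = 2.3e-13) at 4 h. On the opposite strand the gene E230016M11Rik (chr6:67036599-67080654) overlaps the 5′ part of Gadd45a, and no source used here says whether the counting used the strand. E230016M11Rik averaged 2.46 to 5.78 normalized counts in the 5 groups.

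**Figure D1:**
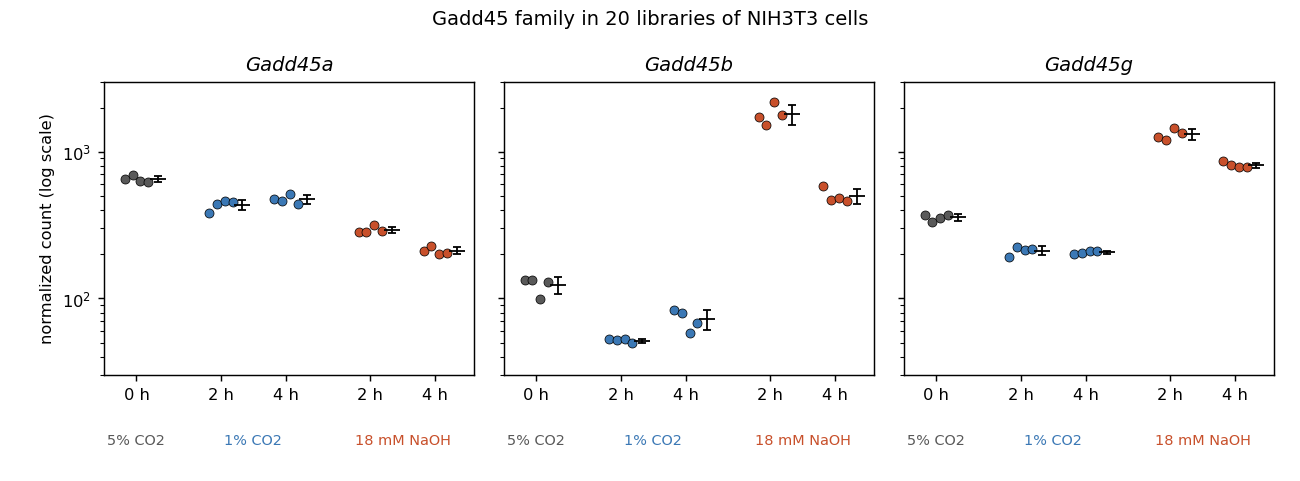
Normalized counts (log scale) of Gadd45a, Gadd45b and Gadd45g in each of 20 libraries, by treatment and time, with the mean and SD of the 4 libraries of a group beside the points. Gadd45b and Gadd45g lie below their 0 h libraries at 1% CO2 and above them in NaOH, while Gadd45a lies below its 0 h libraries in all 4 treated groups.

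The makeup of the family therefore differed between the treatments. Counts of tagged 3′ ends were compared between the 3 genes without a length term. Whether the 3 transcripts are captured equally well was not tested, so the shares below are shares of UMIs. Gadd45a made up 57.5% ± 1.96 (SD, n = 4 libraries) of the family's UMIs at 0 h, 62.2% ± 1.21 and 62.9% ± 1.95 after 2 and 4 h of 1% CO2, and 8.65% ± 0.618 and 13.9% ± 1.01 after 2 and 4 h of NaOH. Gadd45b made up 10.96% ± 1.23 at 0 h, 7.43% ± 0.677 and 9.61% ± 1.58 at 1% CO2, and 52.7% ± 1.85 and 32.7% ± 1.86 in NaOH, in the same order of times. Gadd45g made up 31.6% ± 1.90 at 0 h, 30.4% ± 0.870 and 27.4% ± 1.25 at 1% CO2, and 38.7% ± 1.33 and 53.4% ± 0.991 in NaOH. Gadd45a thus had the most UMIs of the 3 at 0 h and at 1% CO2, Gadd45b after 2 h of NaOH and Gadd45g after 4 h of NaOH, in each of the 4 libraries of the group. The summed level of the family was 1130 ± 31.7 at 0 h, 699 ± 48.6 and 751 ± 26.3 after 2 and 4 h of 1% CO2, and 3412 ± 394 and 1520 ± 91.1 after 2 and 4 h of NaOH.

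**Figure D2:**
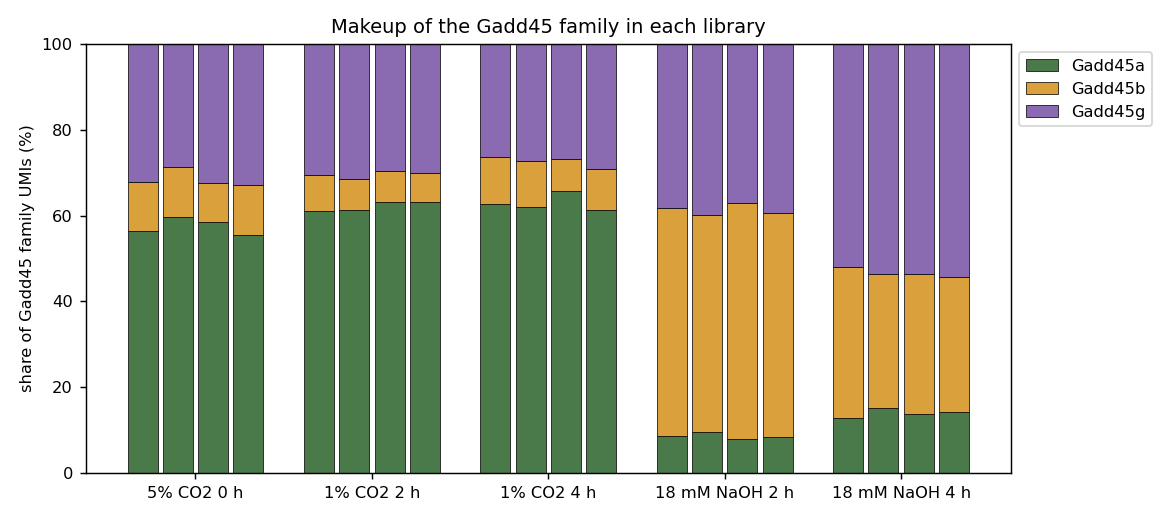
Share of the Gadd45 family's UMIs taken by Gadd45a, Gadd45b and Gadd45g, 1 stacked bar for each library. Gadd45a takes 55.5% to 65.8% of a bar at 0 h and at 1% CO2, and 8.02% to 15.2% in NaOH.

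Of the p53 targets outside the family, Cdkn1a and Mdm2 were both higher than at 0 h after 2 h of each treatment and after 4 h of NaOH. Their 250 bases upstream are shown for the p53 half-sites, with the same motifs in capitals as above.
Cdkn1a, chr17:29090729-29090978 (plus strand): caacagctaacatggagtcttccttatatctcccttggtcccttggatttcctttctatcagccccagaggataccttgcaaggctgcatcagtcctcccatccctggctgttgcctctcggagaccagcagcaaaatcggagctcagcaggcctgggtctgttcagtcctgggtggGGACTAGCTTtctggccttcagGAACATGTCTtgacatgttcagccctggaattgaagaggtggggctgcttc
Mdm2, chr10:117710759-117711008 (minus strand): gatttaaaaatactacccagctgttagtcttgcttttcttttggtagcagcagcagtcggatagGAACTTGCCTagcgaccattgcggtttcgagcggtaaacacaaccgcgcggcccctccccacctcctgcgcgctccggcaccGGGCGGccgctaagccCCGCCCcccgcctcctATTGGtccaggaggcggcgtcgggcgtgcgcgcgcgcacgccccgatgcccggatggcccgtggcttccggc
Cdkn1a (chr17:29090976-29100727, plus strand) has 2 start sites in RefSeq. The first, shown here, held 2 matches to the p53 half-site, 73 to 64 and 51 to 42 bases before the start, and the second held none. Mdm2 (chr10:117688875-117710758, minus strand) held 1 match, 186 to 177 bases before the start, with 2 GC boxes (a motif of 32.7% of promoters) and a CCAAT box. Of the 7 genes with a promoter sequence, Gadd45a, Cdkn1a, Mdm2 and Ccng1 held a half-site match, and Gadd45b, Gadd45g and Btg2 held none. The half-site matches in 7.13% of all promoters, and these genes were listed by name as a family and as p53 targets. Sequence outside the 250 bases, such as introns, was not searched, and no binding was measured.

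Cdkn1a, which encodes the CDK inhibitor p21, was higher at 2 h of either treatment than at 0 h, and lower at 4 h than at 2 h. Its normalized counts were 948, 958, 802 and 853 at 0 h, 1385, 1369, 1421 and 1406 after 2 h of 1% CO2, and 883, 1241, 985 and 1049 after 4 h of 1% CO2. NaOH-treated cells had 2036, 1823, 2082 and 2381 after 2 h and 1500, 1210, 1305 and 1219 after 4 h. Libraries of 1% CO2 at 4 h overlapped with those of 0 h, and at 2 h no libraries overlapped between treatments or with 0 h. The log2FC against 0 h was 0.65 (SE 0.09, edgeR adjusted p = 5.5e-07) after 2 h of 1% CO2 and 0.22 (SE 0.09, edgeR adjusted p = 0.051) after 4 h. In NaOH-treated cells it was 1.23 (SE 0.09, edgeR adjusted p = 7.2e-14) after 2 h and 0.55 (SE 0.09, edgeR adjusted p = 2.7e-06) after 4 h. With RLE factors, with only these 2 groups in the fit, or without any 1 of 3 libraries (0 h replicate 1 or 2, 1% CO2 4 h replicate 1), the value of 1% CO2 at 4 h passed, with a log2FC of 0.23 to 0.29. Cells at 1% CO2 had less Cdkn1a than NaOH-treated cells, with a log2FC of -0.58 at 2 h (SE 0.09, edgeR adjusted p = 3.5e-06) and -0.33 at 4 h (SE 0.09, edgeR adjusted p = 0.0037).

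Mdm2, which encodes the ubiquitin ligase that marks p53 for degradation, rose in all 4 treated groups. Its normalized counts were 222, 206, 199 and 206 at 0 h, 307, 337, 275 and 291 after 2 h of 1% CO2, and 275, 245, 251 and 333 after 4 h of 1% CO2. NaOH-treated cells had 551, 571, 579 and 540 after 2 h and 367, 394, 362 and 327 after 4 h. All treated libraries were above all 0 h libraries, and 1% CO2 and NaOH overlapped at 4 h but not at 2 h. The log2FC against 0 h was 0.54 (SE 0.09, edgeR adjusted p = 2.9e-05) and 0.40 (SE 0.10, edgeR adjusted p = 0.0011) after 2 and 4 h of 1% CO2. It was 1.42 (SE 0.09, edgeR adjusted p = 2.5e-15) and 0.80 (SE 0.09, edgeR adjusted p = 5.1e-09) after 2 and 4 h of NaOH. Cells at 1% CO2 had less than NaOH-treated cells, with a log2FC of -0.88 (SE 0.09, edgeR adjusted p = 9.3e-10) at 2 h and -0.40 (SE 0.09, edgeR adjusted p = 0.0010) at 4 h.

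Btg2, an antiproliferative gene of the BTG/TOB family whose protein recruits the CCR4-NOT deadenylase to mRNAs, rose at 2 h and fell at 4 h against 0 h in both treatments. It is on the minus strand at chr1:134075170-134079120. Its upstream window is shown because it is the member that turned direction with time and the one that held the cyclic AMP response element TGACGTCA (166 to 159 bases before the start).
Btg2, chr1:134079156-134079405 (minus strand): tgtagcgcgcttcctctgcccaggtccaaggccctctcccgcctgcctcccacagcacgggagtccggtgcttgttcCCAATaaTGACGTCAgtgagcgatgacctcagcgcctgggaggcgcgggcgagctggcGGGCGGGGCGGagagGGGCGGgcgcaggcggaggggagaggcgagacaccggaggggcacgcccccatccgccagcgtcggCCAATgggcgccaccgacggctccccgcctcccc
Its normalized counts were 35.1, 24.7, 36.8 and 32.0 at 0 h, 53.7, 52.6, 39.0 and 42.6 after 2 h of 1% CO2, and 13.7, 17.4, 16.1 and 14.2 after 4 h of 1% CO2. NaOH-treated cells had 80.8, 140, 145 and 91.5 after 2 h and 7.63, 6.87, 14.6 and 16.9 after 4 h. None of these libraries overlapped with 0 h, and the treatments overlapped at 4 h. The log2FC against 0 h was 0.55 (SE 0.20, edgeR adjusted p = 0.038) after 2 h and -1.06 (SE 0.26, edgeR adjusted p = 0.0015) after 4 h of 1% CO2. In NaOH-treated cells it was 1.78 (SE 0.19, edgeR adjusted p = 6.6e-10) after 2 h and -1.48 (SE 0.27, edgeR adjusted p = 1.7e-05) after 4 h. The fall between 2 and 4 h was -1.61 (SE 0.25, edgeR adjusted p = 2.3e-05) at 1% CO2 and -3.26 (SE 0.23, edgeR adjusted p = 1.4e-13) in NaOH. Cells at 1% CO2 had less Btg2 than NaOH-treated cells at 2 h by a log2FC of -1.23 (SE 0.18, edgeR adjusted p = 1.9e-06), and at 4 h the difference of 0.42 (SE 0.33) did not pass (edgeR adjusted p = 0.35). At 2 h of 1% CO2 the rise did not pass without 0 h replicate 2 or 4 or 1% CO2 2 h replicate 1 or 2 (edgeR adjusted p = 0.0619 to 0.124), nor with library size alone or DESeq2. At 4 h of 1% CO2 the change was just under 2-fold without 0 h replicate 1 or 3 or 1% CO2 4 h replicate 1 (log2FC -0.997, -0.996 and -0.992). With DESeq2, run with settings that shrink fold changes towards 0, the log2FC was -0.88 (DESeq2 adjusted p = 0.0016).

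Ccng1, which encodes cyclin G1, a partner of the phosphatase PP2A and of MDM2, was lower in NaOH-treated cells at 2 h. It is on the minus strand at chr11:40748552-40755311. Its normalized counts were 217, 201, 174 and 154 at 0 h, 177, 198, 257 and 169 after 2 h of 1% CO2, and 145, 152, 149 and 149 after 4 h of 1% CO2. NaOH-treated cells had 148, 153, 105 and 121 after 2 h and 129, 109, 183 and 181 after 4 h. The libraries of NaOH at 2 h lay just below those of 0 h, the libraries of NaOH at 4 h fell into a lower and a higher pair, and replicate 3 of 1% CO2 at 2 h stood above the other libraries. The fall after 2 h of NaOH had a log2FC of -0.53 (SE 0.15, edgeR adjusted p = 0.0068), and cells at 1% CO2 had more than NaOH-treated cells at 2 h by a log2FC of 0.63 (SE 0.16, edgeR adjusted p = 0.0025). The other 3 comparisons against 0 h had log2FC values of 0.10 (2 h of 1% CO2), -0.33 (4 h of 1% CO2) and -0.32 (4 h of NaOH), with edgeR adjusted p = 0.64, 0.077 and 0.068. The lower level at 4 h than at 2 h of 1% CO2 (log2FC -0.44, SE 0.15, edgeR adjusted p = 0.049) did not pass in 9 of the alternatives. Among them were leaving out any one library of 1% CO2 at 4 h, or replicate 2 or 3 of 1% CO2 at 2 h, and the log2FC was -0.29 (edgeR adjusted p = 0.18) without the high replicate 3.

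Trp53inp1 (chr4:11156431-11174379, plus strand), which encodes a nuclear cofactor of p53, was near the limit of detection. The 4 libraries held 22, 7, 9 and 14 UMIs at 0 h, 5, 8, 8 and 4 after 2 h of 1% CO2, and 4, 0, 3 and 4 after 4 h of 1% CO2. NaOH-treated cells held 0, 0, 2 and 1 UMIs after 2 h and 2, 3, 2 and 5 after 4 h. The summed counts of 52 UMIs at 0 h, 25 and 11 at 1% CO2, and 3 and 12 in NaOH were highest at 0 h, and the mean level of 0 h was 9.77 normalized counts. Without the filter on low counts, the log2FC against 0 h was -0.71 (SE 0.39, edgeR adjusted p = 0.19) and -1.58 (SE 0.47, edgeR adjusted p = 0.0079) after 2 and 4 h of 1% CO2, and -1.69 (SE 0.46, edgeR adjusted p = 0.0020) after 4 h of NaOH. For 2 h of NaOH, with 3 UMIs in all, no fold is given.

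**Figure D3:**
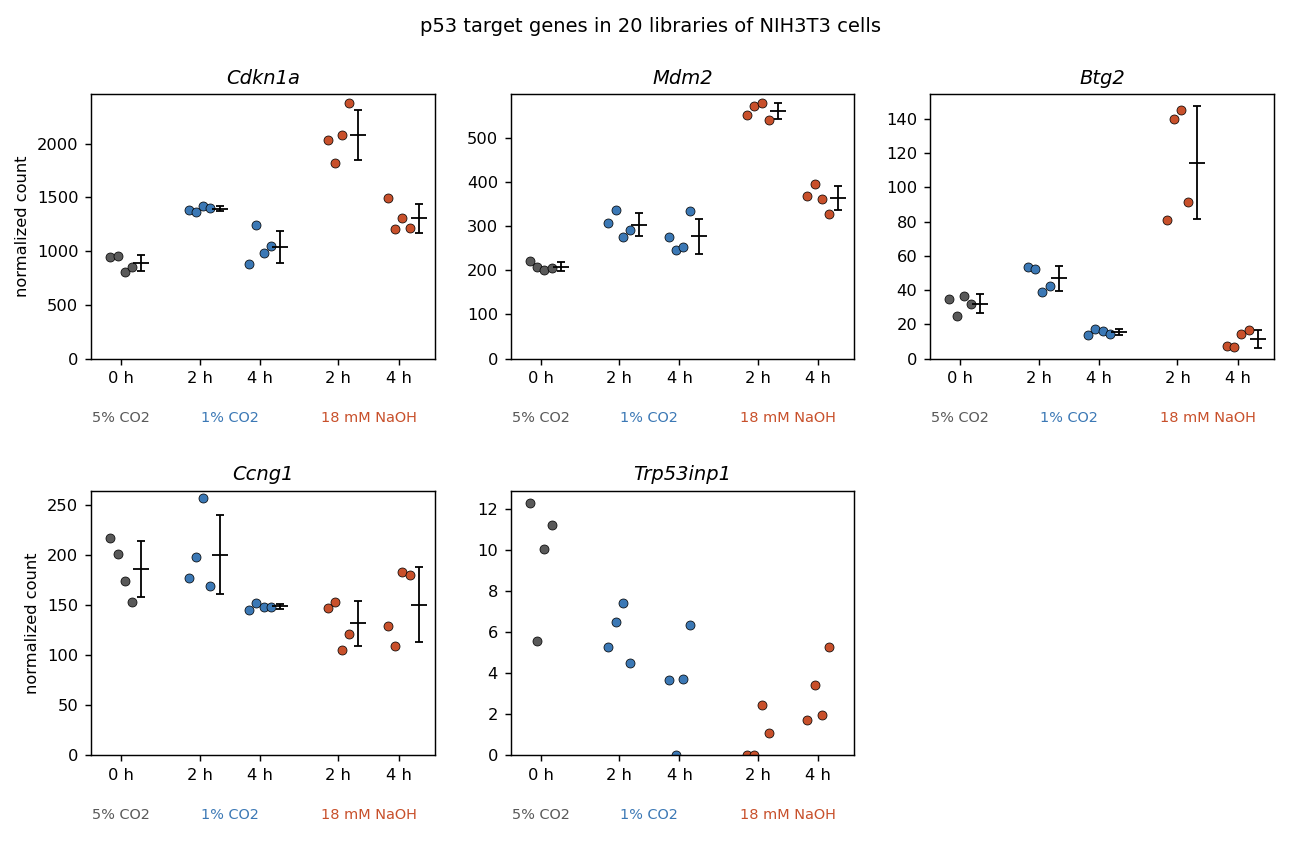
Normalized counts of Cdkn1a, Mdm2, Btg2, Ccng1 and Trp53inp1 in each of 20 libraries, by treatment and time, with the mean and SD of each group for the first 4 genes. Cdkn1a, Mdm2 and Btg2 stand highest after 2 h of NaOH, and Btg2 falls under its 0 h libraries at 4 h of both treatments.

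Seen by comparison, 2 h of NaOH moved the most members. Counts are out of 6 tested members, leaving out Gadd45b, and a call means an edgeR adjusted p of at most 0.05 and a change of at least 2-fold. After 2 h of NaOH 5 of 6 were called against 0 h, where 12% of all genes tested were. Gadd45g, Cdkn1a, Mdm2 and Btg2 were higher and Gadd45a was lower, and with Ccng1 all 6 passed the adjusted p alone, as did 43.4% of all genes. After 4 h of NaOH 3 of 6 were called (15.6% of all genes), Gadd45g higher and Gadd45a and Btg2 lower, and 5 of 6 passed the adjusted p alone (55.1% of all genes).

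After 2 h of 1% CO2 none of the 6 was called against 0 h by edgeR (5.53% of all genes) or by DESeq2, while the adjusted p alone, and also the unadjusted p at 0.05, was passed by 5 of 6 (28.4% of all genes by the adjusted p). Cdkn1a, Mdm2 and Btg2 were higher and Gadd45a and Gadd45g lower, and Gadd45b, which was not tested, had a change of more than 2-fold (2.42-fold). After 4 h of 1% CO2 only Btg2 was called (8.04% of all genes), and 4 of 6 passed the adjusted p alone (39.1% of all genes). The 4 comparisons against 0 h share the 0 h libraries. The median log2FC of the 6 genes was 0.32 and -0.40 after 2 and 4 h of 1% CO2 and 1.32 and 0.12 after 2 and 4 h of NaOH, and that of all genes tested was within 0.03 of 0 in each.

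**Figure D4:**
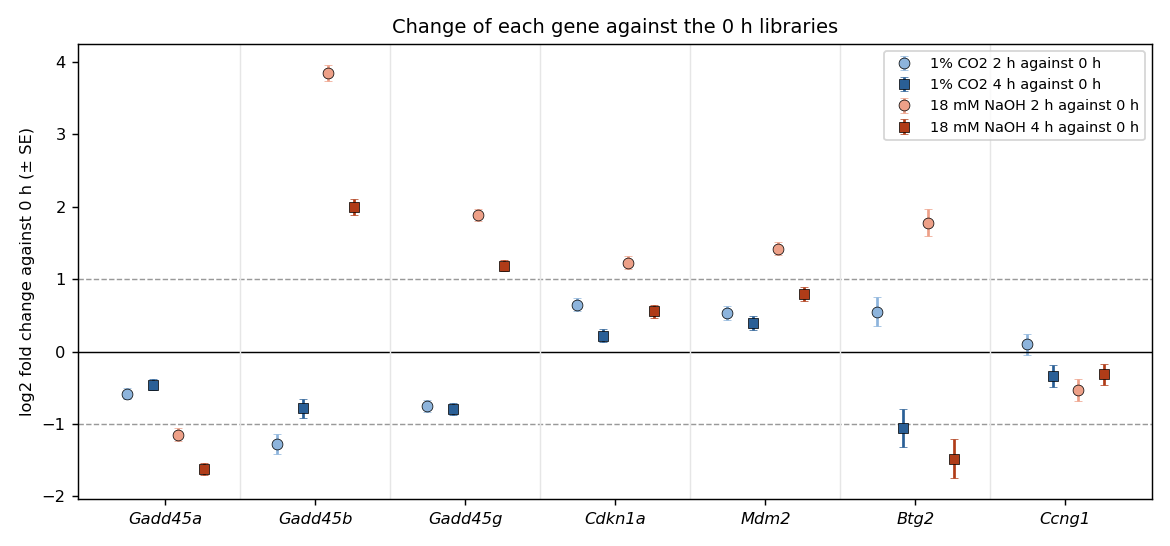
Log2 fold change against 0 h with its SE for 7 members in the 4 treated groups, with dashed lines at a 2-fold change. Gadd45b and Gadd45g lie on opposite sides of 0 in the treatments, Gadd45a lies below 0 throughout, Cdkn1a and Mdm2 lie above it, and Btg2 lies above it at 2 h and below it at 4 h. Values of Gadd45b carry no test.

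Between 1% CO2 and NaOH, which do not share a library, Gadd45g and Btg2 were called lower at 1% CO2 at 2 h, 2 of 6 members where 6.51% of all genes were called. All 6 passed the adjusted p alone at 2 h (32.0% of all genes), Gadd45a and Ccng1 higher and the other 4 lower. At 4 h Gadd45a was called higher and Gadd45g lower at 1% CO2 (2 of 6, against 6.48% of all genes), and 4 of 6 passed the adjusted p alone (35.5% of all genes). Between 4 and 2 h, Btg2 alone was called in either treatment. That is 1 of 6 at 1% CO2, where 1.33% of all genes were called, and 1 of 6 in NaOH, where 6.80% were. In NaOH 5 of 6 members were lower at 4 h than at 2 h by the adjusted p alone (32.5% of all genes), with Gadd45a, Gadd45g, Cdkn1a and Mdm2 at log2FC values of -0.48, -0.70, -0.67 and -0.63. At 1% CO2 3 of 6 were lower (15.3% of all genes), namely Cdkn1a (-0.43), Btg2 and Ccng1, of which Ccng1 did not pass in 9 of the alternatives. Gadd45g differed by -0.05 (SE 0.09) and Mdm2 by -0.14 (SE 0.09) there, without passing.

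The change between 2 and 4 h was then compared between the treatments in the same fit, as the difference of the 2 log2 fold changes, 1% CO2 minus NaOH. It passed for 5 of 6 members, where 15.1% of all genes passed. The difference was 1.65 (SE 0.38, edgeR adjusted p = 0.0029) for Btg2, 0.65 (SE 0.12, edgeR adjusted p = 0.00012) for Gadd45g, 0.60 (SE 0.12, edgeR adjusted p = 0.00064) for Gadd45a and 0.49 (SE 0.13, edgeR adjusted p = 0.0096) for Mdm2. In NaOH these 4 genes fell between 2 and 4 h. At 1% CO2 only Btg2 of them fell, and Gadd45a differed by 0.12 (SE 0.08, edgeR adjusted p = 0.33). For Ccng1 it was -0.65 (SE 0.22, edgeR adjusted p = 0.046), and it did not pass when any one of 10 libraries was left out. Cdkn1a, which was lower at 4 h than at 2 h in both, differed by 0.24 (SE 0.13, edgeR adjusted p = 0.20).

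Other p53 targets did not move as one group. Of 37 listed genes 34 were in the table and 31 were tested. After 2 h of NaOH 3 were called higher and 5 lower against 0 h (12% of all genes called), after 4 h of NaOH 2 higher and 6 lower (15.6%), after 2 h of 1% CO2 2 higher and 2 lower (5.53%), and after 4 h of 1% CO2 none higher and 1 lower (8.04%). By the adjusted p alone, 5 were higher and 11 lower after 2 h of NaOH (43.4% of all genes passed), 4 higher and 14 lower after 4 h of NaOH (55.1%), 3 higher and 6 lower after 2 h of 1% CO2 (28.4%), and 5 higher and 12 lower after 4 h of 1% CO2 (39.1%). The share of the list that passed was near that of all genes after 4 h of NaOH and 2 h of 1% CO2, and these counts are not read as a result about p53 targets. The median log2FC was -0.09 and -0.23 after 2 and 4 h of NaOH and -0.13 and -0.27 after 2 and 4 h of 1% CO2.

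The stress kinase gene Plk3 rose at 2 h of both treatments, and Tnfrsf10b, the gene of the death receptor for TRAIL, was called at 2 h of both and at 4 h of NaOH. At 2 h Plk3 had 179 ± 16.1 normalized counts in cells at 1% CO2 and 262 ± 25.6 in NaOH-treated cells, against 47.8 ± 2.52 at 0 h (SD, n = 4 each, edgeR adjusted p = 4.0e-15 and 5.3e-19). It fell again by 4 h, to 87.6 ± 9.82 at 1% CO2 and 58.0 ± 8.52 in NaOH. Plk3 was then still above 0 h at 1% CO2 (log2FC 0.86, edgeR adjusted p = 3.4e-06) and did not pass in NaOH (log2FC 0.27, edgeR adjusted p = 0.10). Tnfrsf10b had 140 ± 8.42 after 2 h of 1% CO2, and 228 ± 27.3 and 162 ± 29.2 after 2 and 4 h of NaOH, against 57.9 ± 3.78 at 0 h. After 4 h of 1% CO2 Tnfrsf10b averaged 104, a rise of less than 2-fold (log2FC 0.85, edgeR adjusted p = 7.05e-06). Plk2, a relative of Plk3, was called higher after 2 h of NaOH (376 ± 37.2, against 171 ± 15.1 at 0 h), and at 4 h of NaOH it was below 0 h (110 ± 18.0, log2FC -0.64, edgeR adjusted p = 2.6e-05). Phlda3, which encodes an inhibitor of AKT, was called higher after 4 h of NaOH (2306 ± 205, against 1046 ± 66.5 at 0 h). It also rose, by less than 2-fold, after 2 h of NaOH (log2FC 0.69, edgeR adjusted p = 2.0e-08). After 2 and 4 h of 1% CO2 its log2FC was 0.62 and 0.44 (edgeR adjusted p = 3.0e-07 and 6.4e-05).

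Bbc3, which encodes the pro-apoptotic protein PUMA, and Sesn1, a stress-inducible inhibitor of mTORC1, were called lower in NaOH-treated cells. Both also fell against 0 h at 1% CO2, where Sesn1 was called at 2 h. Bbc3 had 36.3 ± 7.59 and 37.4 ± 4.03 normalized counts after 2 and 4 h of NaOH, against 181 ± 6.89 at 0 h (log2FC -2.37 and -2.27, edgeR adjusted p = 3.9e-16 and 1.8e-16). At 1% CO2 Bbc3 stood at 103 ± 13.2 and 112 ± 13.9 (log2FC -0.82 and -0.69 against 0 h, edgeR adjusted p = 7.4e-07 and 1.2e-05). It was called higher there than in NaOH at both times (log2FC 1.55 and 1.58). Sesn1 had 248 ± 19.96 at 0 h, and 82.5 ± 10.5 and 62.1 ± 7.58 after 2 and 4 h of NaOH. After 2 and 4 h of 1% CO2 it had 94.9 ± 4.78 and 143 ± 11.6. The log2FC against 0 h there was -1.38 and -0.79 (edgeR adjusted p = 4.0e-13 and 8.6e-08). Tap1, a peptide transporter of antigen presentation, was called lower after 2 and 4 h of 1% CO2 (71.4 ± 6.33 and 63.1 ± 5.70) and after 4 h of NaOH (47.7 ± 4.73), against 156 ± 12.7 at 0 h. It also fell, by less than 2-fold, after 2 h of NaOH (104 ± 8.98, log2FC -0.58, edgeR adjusted p = 6.0e-05). Bax, the classical mitochondrial target, had 686 ± 130 and 654 ± 109 at 1% CO2 and 666 ± 141 and 822 ± 120 in NaOH, against 678 ± 73.9 at 0 h, and did not pass in any of the 4 comparisons. Bax was named after its values had been seen.

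**Figure D5:**
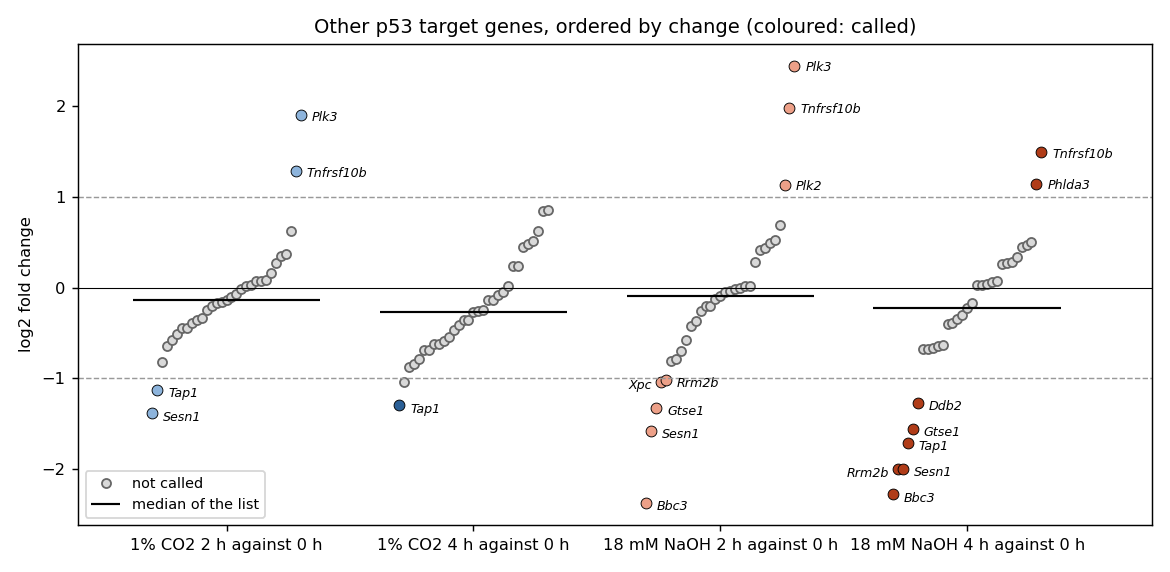
Log2 fold change against 0 h of the 31 other p53 target genes tested, ordered by size within each comparison. Coloured and named points were called, grey points were not, dashed lines mark a 2-fold change, and the bar is the median of the list, which lies between -0.27 and -0.09. Plk3 and Tnfrsf10b lie at the top at 2 h and Bbc3 at the bottom in NaOH.

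Of 22 genes of the p53 family and regulators of p53, 17 were in the table and 15 were tested. The mRNA of p53 itself, Trp53, had 74.4 ± 17.9 and 68.6 ± 18.5 normalized counts after 2 and 4 h of 1% CO2 and 71.3 ± 24.6 and 74.7 ± 13.8 after 2 and 4 h of NaOH, against 71.6 ± 2.87 at 0 h. Its log2FC lay between -0.04 and 0.07 with SE values of 0.20 to 0.21, and p53 protein was not measured. Ppp1r13l, which encodes the p53 inhibitor iASPP, had the largest change of the list, with 468 ± 47.7 and 350 ± 25.8 after 2 and 4 h of NaOH, against 54.2 ± 6.51 at 0 h (log2FC 3.08 and 2.68, edgeR adjusted p = 9.9e-22 and 6.9e-20). At 1% CO2 it stood at 85.1 ± 8.09 and 102 ± 21.6, a rise against 0 h of less than 2-fold (log2FC 0.63 and 0.93, edgeR adjusted p = 0.00056 and 1.1e-06). It was called lower there than in NaOH at both times (log2FC -2.45 and -1.74). Chek2, a DNA damage kinase, was called lower in all 4 treated groups, at 5.29 to 10.5 on average against 21.4 ± 6.73 at 0 h. Atm, the kinase upstream of it, was called lower after 2 h of NaOH (9.21 ± 0.952, against 26.0 ± 2.98 at 0 h). Atm also fell, by less than 2-fold, after 4 h of NaOH (log2FC -0.97, edgeR adjusted p = 0.00029) and after 2 h of 1% CO2 (log2FC -0.56, edgeR adjusted p = 0.037). After 4 h of 1% CO2 its change did not pass (log2FC -0.27, edgeR adjusted p = 0.31). Usp7 and Hipk2 were called higher after 4 h of NaOH (log2FC 1.02 and 1.14), and both also rose after 2 h of NaOH (0.78 and 0.89). Usp7 rose by about as much after 2 and 4 h of 1% CO2 (log2FC 0.78 and 0.77, edgeR adjusted p = 0.0010 each). Its difference between the treatments did not pass at 2 h (log2FC 0.004) or at 4 h (log2FC -0.25, edgeR adjusted p = 0.25). Of the 15 genes 0 were called higher and 1 lower at each time of 1% CO2 (5.53% of all genes called at 2 h and 8.04% at 4 h), 1 higher and 2 lower after 2 h of NaOH (12%), and 3 higher and 1 lower after 4 h of NaOH (15.6%). At 1% CO2 this is near the share of all genes.

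Among 16 genes of proteins that GADD45 proteins bind or act through, 13 were in the table and 12 were tested. Map2k3, the kinase that activates p38, was called higher in all 4 treated groups, with 676 ± 81.0 and 586 ± 29.0 normalized counts after 2 and 4 h of 1% CO2 and 1135 ± 42.4 and 1078 ± 71.2 after 2 and 4 h of NaOH, against 278 ± 28.9 at 0 h. It was the only one of the 12 called higher against 0 h, and those called lower were 1 after 2 h and 0 after 4 h of 1% CO2 and 1 after 2 h and 3 after 4 h of NaOH, where 5.53%, 8.04%, 12% and 15.6% of all genes were called. Map3k4, the kinase that GADD45 proteins bind, had 92.6 ± 7.98 in cells at 1% CO2 and 193 ± 12.1 in NaOH-treated cells at 2 h (log2FC -1.06, edgeR adjusted p = 7.8e-10), against 122 ± 5.44 at 0 h. It fell after 2 h of 1% CO2 (log2FC -0.38, edgeR adjusted p = 0.0070) and did not pass after 4 h (0.09, edgeR adjusted p = 0.55). In NaOH it rose at 2 and 4 h (log2FC 0.68 and 0.71, edgeR adjusted p = 1.5e-06 and 2.3e-07). At 4 h the treatments differed by -0.62 (edgeR adjusted p = 1.2e-05). The genes called lower were Map2k6 after 2 h of 1% CO2, Ccnb1 after 2 h of NaOH, and both with Mapk12 after 4 h of NaOH, with 2.70 to 8.03 normalized counts on average where called.

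Of 9 paralogs of the members 7 were tested. Ccng2, the relative of Ccng1, was called lower at 2 h of both treatments, with 16.6 ± 3.38 normalized counts at 1% CO2 and 7.64 ± 3.33 in NaOH, against 43.3 ± 6.36 at 0 h. At 4 h it was at 22.4 ± 3.93 in cells at 1% CO2, still below 0 h (log2FC -0.94, edgeR adjusted p = 0.00023), and at 40.7 ± 3.59 in NaOH-treated cells, and the treatments differed by -0.86 (edgeR adjusted p = 0.0011). Cdkn1b, the relative of Cdkn1a that encodes p27, was called lower at 2 h of both, with 25.8 ± 3.78 at 1% CO2 and 18.6 ± 5.56 in NaOH, against 54.1 ± 7.24 at 0 h. Btg3, of the family of Btg2, was called higher after 4 h of NaOH (26.7 ± 3.12, against 12.9 ± 2.52 at 0 h). It also rose, by less than 2-fold, after 2 h of NaOH (24.5 ± 2.90, log2FC 0.94, edgeR adjusted p = 0.00099). Of 10 CDK inhibitors and G1 cyclins 7 were tested. Ccnd1, cyclin D1, was called higher at both times of 1% CO2 (543 ± 91.5 and 915 ± 115) and after 4 h of NaOH (548 ± 41.8), against 262 ± 34.4 at 0 h. Cdkn2d, which encodes the CDK4 and CDK6 inhibitor p19, was called lower in all 4 treated groups, at 40.8 to 52.7 on average against 121 ± 7.77 at 0 h.

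Across the 20 libraries, the genes most like each member were found by Pearson's r of log2 CPM (counts scaled to library size), among 6621 genes with a mean of at least 50 normalized counts in their highest group. These libraries share treatments and controls, so r mainly follows the 5 group means and is given without a p. The gene most like Gadd45b was Gadd45g (r = 0.985), followed by Spsb1 (0.975). For Gadd45g, Rnf19b (0.984) and Klf4 (0.967) came after Gadd45b. Gadd45a was most like Ralgds (0.946), Pomk (0.938) and Txnip (0.930), and its r with Gadd45b was -0.674. Genes like Mdm2 were Snai1 (0.970) and Vps37b (0.968), and its r with Cdkn1a was 0.891. Cdkn1a was most like Ndel1 (0.964), Ppp1r18 (0.953) and Mettl6 (0.950). Btg2 was most like F3 (0.950), the gene of tissue factor, followed by Ier2 (0.930) and Fos (0.924). Ccng1 had the weakest likeness, to Hook3 (0.898), Klhl9 (0.885) and Cd34 (0.882).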

How the data were processed

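RNA of NIH3T3 cells was measured by bulk MARS-seq in 20 libraries. Reads were trimmed by the authors with cutadapt, mapped to mm10 with STAR (2.4.2a in the submitters' processing notes, another version in the methods) and counted as UMIs per RefSeq gene, lengthened by 1000 bases upstream and 100 downstream, with HTSeq-count in union mode. These UMI counts make up the deposited table and were used here, beside a normalized signal that the authors computed with DESeq2. The deposited signal equals the count divided by a size factor for each library (largest deviation 5.82e-11) and was used for this check only. Near-identical 3′ ends can share counts.

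Total counts were 1325293 to 5640523 for each library, and the common biological coefficient of variation was 0.101. Libraries of one group differed by more than counting noise (30 pairs, chi-square of 2.08 to 10.6 for each degree of freedom). All 20 were treated as separate samples. The chi-square cannot tell separate cultures from separate preparations of one culture. Counts were scaled with TMM factors and fitted with edgeR 4.0.16 (robust quasi-likelihood, 5 groups in one model). The 9726 genes that reached a mean of 5 normalized counts were tested, which left out 1349. P-values were adjusted over all genes tested, and calls needed both an adjusted p no higher than 0.05 and a 2-fold change. The SE is the log2FC divided by the square root of F. The steps were tested on simulated data. Alternatives were RLE factors, library size alone, no filter, a mean of at least 20, DESeq2, only the 2 groups compared, the replicate number as a block, no fold threshold, and leaving out each library in turn. DESeq2 was run with the study's settings, under which fold changes are shrunk towards 0.

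Members and gene lists were chosen with earlier results of these data known. The text names every member, the called genes of each list with the 3 smallest adjusted p or in the minority direction, and for each member the 3 genes of highest r, leaving out Riken, Gm and LOC symbols. Some genes within the rule are not reported here. Cop1 was matched by its older symbol Rfwd2. Of the listed genes, Gdf15, Perp, Polh, Trp63, Trp73, Chek1, Cdkn2a, Crebbp, Mapk13, Cdk1, Tdg, Cdkn1c and Cdkn2b were not analysed here. Gene positions are from GENCODE M21 (GRCm38), and promoter sequences from RefSeq (GRCm38.p6) for 7 of the 8 members. Figures were drawn with matplotlib 3.10.9 in Python 3.11.15.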

Additional observations from a re-analysis of the deposited data

Results flagged for a closer look

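Within a group of 4 libraries, 1 library stood far from the other 3 in 2 of the 40 groups of values screened, where chance alone marks about 1 in 20. Gadd45a was at 316.7 normalized counts in replicate 3 of NaOH at 2 h, and at 284.2 to 287.4 in the other 3. Gadd45b was at 99.15 in replicate 3 of 0 h, and at 130.4 to 133.8 in the other 3.

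Gadd45g differed between 1% CO2 and NaOH with opposite directions against 0 h, by a log2FC of -2.63 at 2 h (edgeR adjusted p = 2.7e-24) and -1.98 at 4 h (edgeR adjusted p = 4.8e-20). The change between 2 and 4 h differed between the treatments (1% CO2 minus NaOH) by 0.6 for Gadd45a (edgeR adjusted p = 0.00064), 0.654 for Gadd45g (0.00012), 0.486 for Mdm2 (0.0096), 1.65 for Btg2 (0.0029) and -0.647 for Ccng1 (0.046).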

How the results depend on the processing

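Without a fold threshold the number of members that passed was 5 for 2 h and 4 for 4 h of 1% CO2 against 0 h, 5 for 4 h of NaOH against 0 h, 6 and 4 for 1% CO2 against NaOH at 2 and 4 h, and 3 and 5 for 4 h against 2 h of 1% CO2 and of NaOH. For 4 h of 1% CO2 against 0 h, the 1 call became 2 without the filter on low counts or with only these 2 groups in the fit, both of which add Trp53inp1 to the genes tested. It became 0 with DESeq2, whose shrunken fold change of Btg2 was under 2-fold, and 0 to 1 when a library was left out. The other alternatives kept each count within 1.5 times its value.

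The direction of Ccng1, which passed in neither case, turned for 1% CO2 against NaOH at 4 h to 0.055 with library size alone and ranged from -0.137 to 0.092 when a library was left out, and for 2 h of 1% CO2 against 0 h it was -0.032 without 1% CO2 2 h replicate 3. With library size alone the median log2FC of all genes was -0.21 and -0.19 after 2 and 4 h of NaOH, -0.12 after 4 h of 1% CO2, and 0.12 for 1% CO2 against NaOH at 2 h. Gadd45b was then at 3.665 and 1.8 after 2 and 4 h of NaOH, and no member that passed changed direction.

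Replicate numbers did not pair the libraries. Same-numbered libraries correlated at -0.23 to 0.19 (median -0.026, 3 of 40 pairs over 0.1), and 2 of 20 libraries correlated best with their own number. With the replicate block the log2FC of Btg2 after 2 h of 1% CO2 was 0.531 (edgeR adjusted p = 0.053), and the counts of calls stayed within 1.5 times. Counts of Btg2 (6 to 16 UMIs after 4 h of NaOH) and Trp53inp1 (0 to 22 UMIs) limit their precision.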
